A study of Danio rerio with 12 samples.

Results

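Among the open chromatin regions of 4 zebrafish skeletal cell populations, 1424 regions were held by exactly 3 populations and missing from the fourth. They were 10.5% of the 13540 regions held by at least 1 population, and all libraries together gave 133213 regions. The 4 classes by missing population differed in size. Regions missing from trunk chondrocytes numbered 554 (4.09% of held regions), those missing from head osteoblasts 325 (2.4%), those missing from head chondrocytes 316 (2.33%) and those missing from trunk osteoblasts 229 (1.69%). The order of sizes was not stable to leaving out 1 library: without head chondrocyte replicate 3, 554 regions were missing from head chondrocytes and 333 from trunk chondrocytes, and each class moved by over 1.5 times under some such setting. A population with 1 library less is harder to count as holding, so its own class grows by construction. These shares are the classes themselves, so nothing was tested with them.

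Open chromatin was measured by ATAC-seq, in which a transposase inserts sequencing adapters where DNA is not covered by nucleosomes. The samples were 12 libraries from 15 days post fertilisation, 3 biological replicates for each of head osteoblasts, trunk osteoblasts, head chondrocytes and trunk chondrocytes. All fish were wild type (WT) and carried both entpd5a:Gal4FF;UAS:GFP, a green reporter of the osteoblast gene entpd5a, and R2col2a1a:mCherry, a red reporter of the cartilage collagen gene col2a1a. Osteoblasts (labelled classical in the head and non-classical in the trunk) were the green cells without red, and chondrocytes the red cells without green, so each population holds whatever cells those 2 reporters mark. The number of fish per library was not given in the sources used here. No gene annotation of the genome build of these lists was used here, so the populations were not checked against marker genes and regions are given by position (GRCz11) without gene names.

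Open chromatin marks promoters and enhancers, the sequences from which transcription is controlled. Promoters of widely used genes are open in most cell types, while enhancers are open in few. Osteoblasts build bone matrix and chondrocytes cartilage matrix, and in the vertebrate skeleton both can arise from shared mesenchymal progenitors.

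The authors' lists give for every called peak its summit, the base with the most signal, and a score. Neighbouring summits no more than 250 bp apart, taken over all 12 lists, formed 1 region. The same number of top-scoring summits was then taken from every library, set by the length of the shortest list, and these are called kept summits. A population held a region when at least 2 of its 3 libraries had a kept summit in it. The full lists held up to 79517 summits, and the score of the last kept summit ran from 1.31 in trunk chondrocyte replicate 3 to 172 in head chondrocyte replicate 1. For trunk chondrocyte replicate 3 the kept summits were the whole list. A region is therefore missing when at least 2 of the population's 3 libraries had no kept summit in it. It was not shown to be closed. In a bulk library, fewer cells with an open region and less opening per cell cannot be told apart.

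Most of the missing regions were weaker in the missing population and not absent from it. In the full lists, 854 of the 1424 regions (60.0%) had a summit in all 3 libraries of the missing population and 509 (35.7%) in 2, and 9 (0.632%) had none. The share was highest in head chondrocytes, with a summit in all 3 full lists for 302 of 316 regions (95.6%). Of all regions that only other populations held, 77.5% had one in all 3. The corresponding shares were 281 of 325 (86.5%, against 54.3%) for head osteoblasts and 169 of 229 (73.8%, against 37.3%) for trunk osteoblasts. In trunk chondrocytes 102 of 554 regions had a summit in all 3 (18.4%, against 10.8%). Trunk chondrocyte replicate 3, whose list ends at the kept summits, held 106 of the 554. Replicates 1 and 2 held 531 and 548. Kept summits themselves were present in 1 library of the missing population for 877 regions (61.6%) and in no library for 547 (38.4%).

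Regions held by 3 populations were in the missing population's full lists more often than regions held by fewer. Over all regions held by another population and not by head osteoblasts, 83.1% had a full-list summit in at least 2 of its libraries, and of the members 95.4% did. The corresponding shares were 62.7% and 93.0% for trunk osteoblasts, 87.1% and 98.4% for head chondrocytes, and 70.4% and 95.5% for trunk chondrocytes. Each overall share includes the members. Split by the number of holding populations, the share for head osteoblasts was 78.2% of regions held by 1, 88.3% of those held by 2 and 95.4% of those held by 3. The order did not hold for trunk osteoblasts, where it was 62.9% for 1 and 59.0% for 2 holding populations. These shares use the same lists as the choice of the regions and were not tested.

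**Figure D1:**
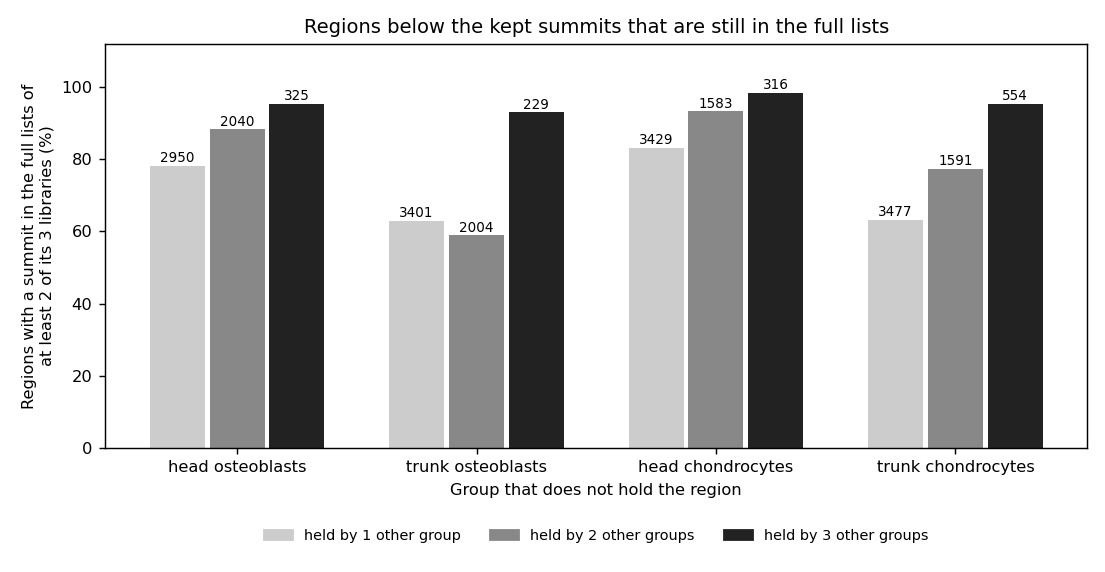
Bars give the percentage of regions not held by a population (x axis) that still had a summit in the full lists of at least 2 of its 3 libraries (y axis), split by how many of the other populations held them. Numbers above the bars are regions. The black bars, the regions missing from exactly 1 population, reach 93.0% to 98.4% and are the highest bar for each population.

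To give strength on one scale, the deciding rank of a population is the second lowest of its 3 libraries' ranks, rank 1 being the strongest summit of a library. A population holds a region when its deciding rank is within the kept summits. In the missing population the median deciding rank was 12059 for regions missing from head osteoblasts, 10588 for trunk osteoblasts, 10161 for head chondrocytes and 10347 for trunk chondrocytes. The middle 50% of values ran from 9977 to 16734 in head osteoblasts and from 9121 to 13080 in head chondrocytes. The deciding rank lay within 1.5 times the threshold for 974 of the 1424 regions (68.4%). That share was lowest for regions missing from head osteoblasts, 176 of 325 (54.2%), and between 68.6% and 74.7% in the other classes. Trunk chondrocyte replicate 3, whose list ends at the kept summits, had a summit in 106 of the 554 regions missing from its population. Where it had none, the deciding rank was the weaker of replicates 1 and 2. The values of that class are thus not strictly comparable with those of the others.

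Among the populations that held a region, strength was graded. Regions missing from head osteoblasts had median deciding ranks of 6020 in trunk osteoblasts, against 4047 in head chondrocytes and 3422 in trunk chondrocytes. Regions missing from trunk osteoblasts had 6330 in head osteoblasts, against 4767 in head chondrocytes and 4979 in trunk chondrocytes. In both of these classes the other osteoblast population was thus the weakest holder at the median. Regions missing from head chondrocytes had 6694 in trunk chondrocytes, 5162 in head osteoblasts and 4589 in trunk osteoblasts. Regions missing from trunk chondrocytes had 6683 in head chondrocytes, 4560 in head osteoblasts and 5207 in trunk osteoblasts. Here the other chondrocyte population was the weakest holder at the median. All these values were weaker than in the 4088 regions held by all 4 populations. Medians there were 2240 in head and 2322 in trunk osteoblasts, and 2784 in head and 3008 in trunk chondrocytes. Both chondrocyte populations were thus weaker at the median there too, so that order is not particular to the chondrocyte classes.

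**Figure D2:**
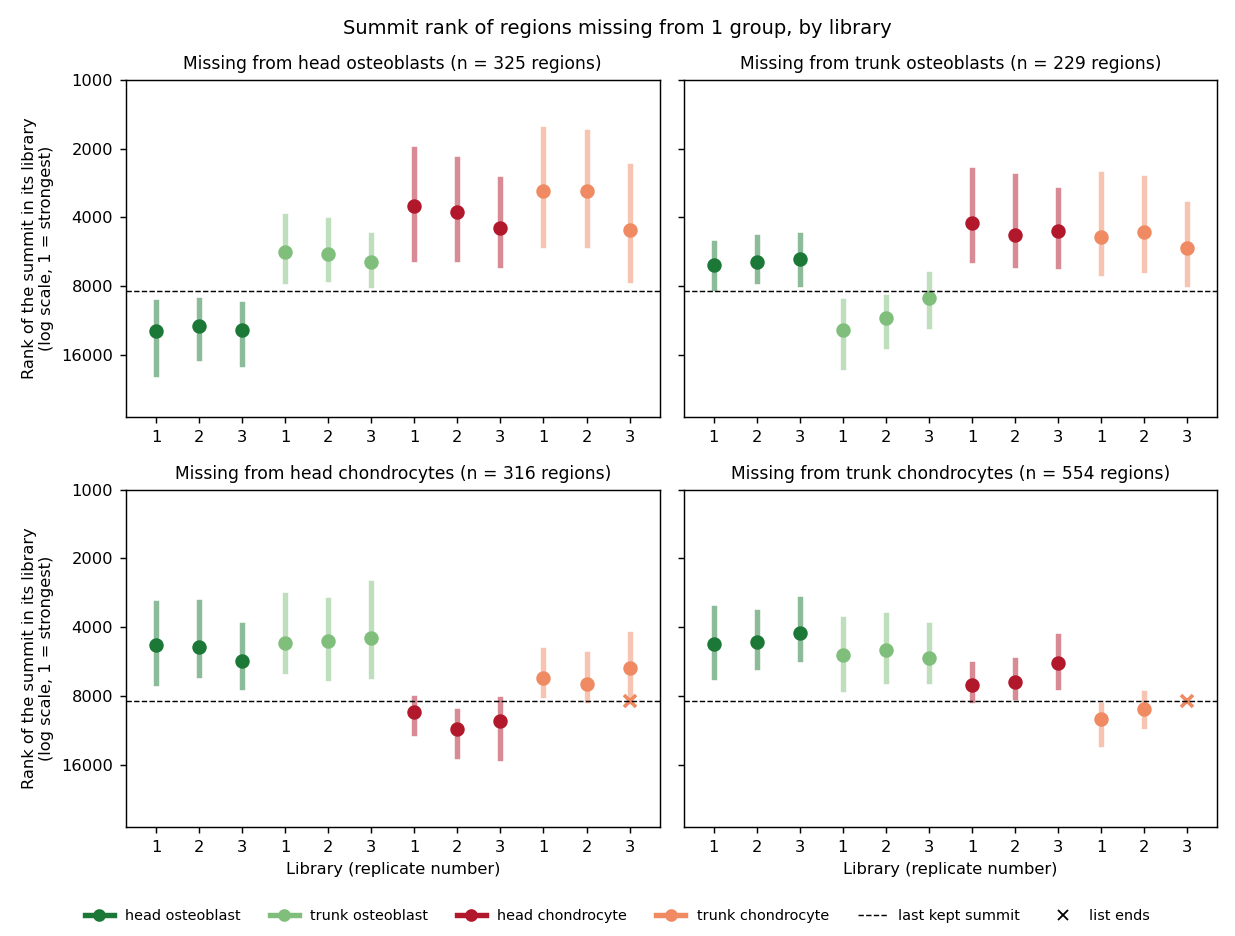
Points give the median rank of the summit in each library (y axis, log scale, strongest at the top) and bars the range between quartiles, for each class, with libraries along the x axis by population and replicate. A cross marks trunk chondrocyte replicate 3 where its list ends before the quartile or the median is reached. In each class the drawn medians of the missing population lie below the dashed line at the last kept rank, and some of its bars cross that line. Trunk chondrocyte replicate 3 has no median in the class missing from its population, and its cross lies on the line. Among the holders, the other population of the missing one's cell type has the medians nearest to the line.

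Counted per region, the weakest holder was the population of the same cell type as the missing one in 212 of 325 regions missing from head osteoblasts (65.2%). The same held for 134 of 229 missing from trunk osteoblasts (58.5%), 199 of 316 missing from head chondrocytes (63.0%) and 382 of 554 missing from trunk chondrocytes (69.0%). In the regions of all 4 populations, trunk osteoblasts were the weakest of the same 3 populations in 22.4% and head osteoblasts in 21.9%. Trunk chondrocytes were the weakest in 61.1% and head chondrocytes in 56.8%. For the osteoblast classes the share was thus above that of the shared regions, which was not tested. For regions missing from head chondrocytes it was close to that background, and nothing is read from it. For those missing from trunk chondrocytes it was 69.0% against 56.8%, which was not tested either.

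Since all 12 libraries chose the classes, each was also chosen anew with 1 library left out and then measured in that library. The remaining 2 libraries of the left-out library's population had both to hold the region, or both to lack it in the missing population. Of the regions missing from head osteoblasts, the left-out head osteoblast libraries held 17.7%, 19.7% and 14.2% (replicates 1, 2 and 3), a mean of 17.2% ± 2.79 (SD, n = 3). The 9 left-out libraries of the other populations held between 75.7% and 97.9%, a mean of 86.3% ± 9.08 (SD, n = 9). The 2 sets of values did not overlap, and the difference was -69.1 percentage points (exact two-sided permutation test, p = 0.00455, Benjamini-Hochberg adjusted over the 4 classes p = 0.00455). With 220 partitions of 12 libraries, this is the smallest p they can give. Libraries of the missing population were measured where both remaining ones lacked the region, the others where both held it. Agreement between replicates alone thus gives this direction, and the test shows no more than that agreement. The values are also not independent, as each left-out trunk osteoblast library held the same 174 regions. With full lists in place of kept summits the difference was -32.5 percentage points and missed the threshold (exact permutation test, adjusted p = 0.0788).

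Of the regions missing from trunk osteoblasts, the left-out trunk osteoblast replicates 1, 2 and 3 held 31.1%, 36.0% and 54.8%, a mean of 40.6% ± 12.5 (SD, n = 3), against 84.0% ± 8.35 in the holding populations (SD, n = 9). Replicate 3 was the highest of the 3. For regions missing from head chondrocytes the left-out head chondrocyte libraries held 43.5%, 18.2% and 41.5%, a mean of 34.4% ± 14.1 against 79.2% ± 14.2. For those missing from trunk chondrocytes the left-out trunk chondrocyte libraries held 39.8%, 53.6% and 40.0%, a mean of 44.5% ± 7.94 against 86.0% ± 9.38. In all 3 classes no library of the missing population reached the lowest value of the 9 others (exact two-sided permutation test, adjusted p = 0.00455 each). Here too the choice of regions gives this direction wherever replicates agree, so nothing beyond that agreement is read from the test. Head osteoblasts thus had the lowest left-out share of the missing populations, and that difference between classes was not tested. With full lists the difference of head chondrocytes was -26.1 and missed the threshold (exact permutation test, adjusted p = 0.168). Those of trunk osteoblasts and trunk chondrocytes were -48.3 and -50.1 and passed it (exact permutation test, adjusted p = 0.0455 each). The order of the classes thus turned, the trunk populations having the larger differences. Full lists were not of equal length, and the list of trunk chondrocyte replicate 3 ends at the kept summits. Trunk osteoblast replicates 1, 2 and 3 had 20380, 24798 and 64219 summits, against 79517 in head chondrocyte replicate 1. The share of list length in this order was not tested, and no difference between head and trunk is read from it.

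The left-out libraries in that comparison were measured in different regions. A second measure, chosen after the values were seen, left out the same replicate number in all 4 populations and compared the 4 left-out libraries in the same regions. These sets were smaller, with 104 to 146 regions missing from head osteoblasts, 39 to 88 from trunk osteoblasts, 51 to 85 from head chondrocytes and 83 to 173 from trunk chondrocytes. The library of the missing population was the lowest of the 4 in 3 of 3 sets in each class. It held 16.5% ± 2.89 of the regions missing from head osteoblasts, 43.9% ± 12.9 for trunk osteoblasts, 30.7% ± 14.5 for head chondrocytes and 51.3% ± 12.7 for trunk chondrocytes (SD, n = 3). The 3 other libraries averaged 89.2%, 82.4%, 84.7% and 87.5% (exact permutation of the missing population within sets, two-sided, adjusted p = 0.0156 in each class, the smallest that 64 arrangements can give). The 3 sets of a class share libraries and are not independent experiments. Replicate numbers are those of the sample titles, and 7 of the 12 lists have a different number in their peak names. Over all 81 combinations of 1 left-out library per population, which use no replicate number, the library of the missing population was the lowest in 81 of 81 in each class. The combinations reuse the same 12 libraries. In the sets and the combinations, regions were again chosen because the remaining libraries lacked or held them. Agreement between replicates alone gives this outcome, and nothing further is read from it.

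In the same sets the holding population of the missing one's cell type was the lowest holder. Trunk osteoblasts held 78.9% ± 1.57 of the regions missing from head osteoblasts (SD, n = 3), against 94.4% ± 6.85 in the 6 chondrocyte libraries. Head osteoblasts held 71.7% ± 7.22 of those missing from trunk osteoblasts, against 87.7% ± 8.4. Trunk chondrocytes held 68.0% ± 5.35 of those missing from head chondrocytes, against 93.0% ± 3.03 in the osteoblast libraries, and head chondrocytes 77.7% ± 11.1 of those missing from trunk chondrocytes, against 92.3% ± 6.04.

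By the numbers in the titles, this order held in 3 of 3 sets in each class (exact permutation within sets, two-sided, adjusted p = 0.037 each, the smallest that 27 arrangements can give). Over the 81 combinations it held in 68 for regions missing from head osteoblasts, 66 for trunk osteoblasts, 81 for head chondrocytes and 64 for trunk chondrocytes, so in 3 of the 4 classes it depended on which libraries were set together. With 1 library left out at a time the differences were -13.0, -8.72, -27.1 and -13.3 percentage points in the same order of classes, and only that of regions missing from head chondrocytes passed the threshold (exact permutation over 84 partitions, adjusted p = 0.0476, against 0.0952, 0.155 and 0.0714). By deciding rank, trunk chondrocytes were the weakest of the same holders in 61.1% of the regions of all 4 populations, and head chondrocytes in 56.8%. For trunk and head osteoblasts these shares were 22.4% and 21.9%. No effect of cell type is therefore read from the p-values of the chondrocyte classes. None is read from those of the osteoblast classes either, where the order held in only 68 and 66 of the 81 combinations. With 1 library left out at a time, their differences missed the threshold. In regions chosen in the same way as held by all 4 populations, left-out libraries held 98.5% ± 0.658 in head and 98.2% ± 1.32 in trunk osteoblasts, and 98.3% ± 0.174 in head and 94.6% ± 4.82 in trunk chondrocytes (SD, n = 3). The lowest of these was trunk chondrocyte replicate 3, with 89.3%. It was also the lowest left-out holding library of its population in the 3 classes that trunk chondrocytes hold. Regions held by all 4 populations had stronger ranks than the members. The shares in them thus do not show how libraries fare near the threshold.

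**Figure D3:**
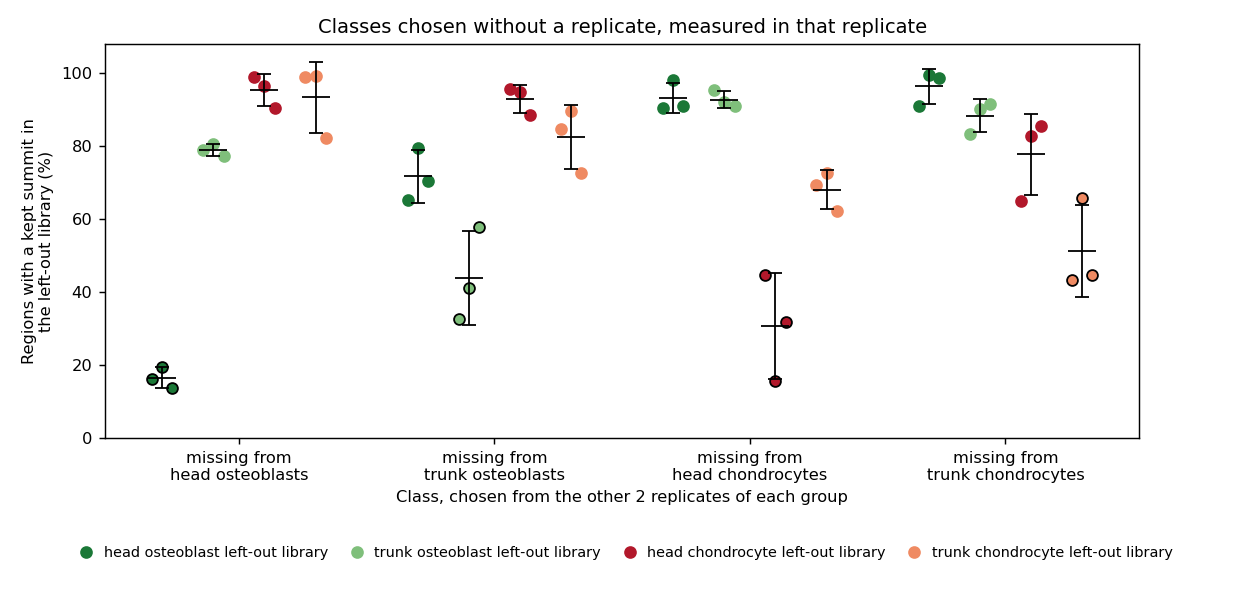
Points give the percentage of regions with a kept summit in a left-out library (y axis), for classes chosen from the other 2 replicates of each population (x axis), with the mean and SD over the 3 left-out replicates as lines. Points ringed in black belong to the missing population. Replicates are set together by the number in the sample title. The ringed points lie between 13.7% and 65.9%, and within each class the other population of the same cell type has the lowest mean of the 3 holders.

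The strongest regions of each class were taken by their mean rank over the 9 holding libraries, among regions kept in all 9 and in none of the 3 libraries of the missing population. Such complete regions numbered 149 (1.1% of held regions). Of these, 69 were missing from head osteoblasts (0.51% of held regions), 37 from trunk chondrocytes (0.273%), 27 from head chondrocytes (0.199%) and 16 from trunk osteoblasts (0.118%). In 7 of the 8 strongest regions missing from head osteoblasts the weakest holder was trunk osteoblasts. The same count for the cell type partner was 7 of 8 for trunk osteoblasts, 7 of 8 for head chondrocytes and 5 of 8 for trunk chondrocytes. In the regions of all 4 populations the partner was the weakest of the same holders in 22.4%, 21.9%, 61.1% and 56.8%, in the order of these classes. With 8 regions per class, picked by their ranks, nothing is read from these counts. All ranks below are from these lists, with replicates in the order 1, 2 and 3, and describe regions that were chosen by them.

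The strongest region missing from head osteoblasts lay on chromosome 1, 37369605 to 37369643. Its summit ranked 1974, 1251 and 2180 in trunk osteoblasts, and 1570, 1023 and 1730 in head chondrocytes and 1129, 1266 and 790 in trunk chondrocytes. In head osteoblasts it ranked 11622, 9056 and 11135. The 9 holding libraries lay between 790 and 2180, and all 3 head osteoblast libraries lay apart from them. Chromosome 7, 68548619 to 68548783, had ranks of 1857, 823 and 1951 in trunk osteoblasts, with 1239, 2411 and 3539 in head chondrocytes and 618, 631 and 917 in trunk chondrocytes, and of 13248, 14720 and 14387 in head osteoblasts. Here trunk chondrocytes had the lowest median rank, and the ranks of trunk osteoblasts overlapped with those of both chondrocyte populations.

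In other named regions missing from head osteoblasts, trunk osteoblasts had a weaker median rank than both chondrocyte populations. On chromosome 8, 32993432 to 32993648, ranks were 680, 729 and 930 in head chondrocytes, 342, 643 and 2393 in trunk chondrocytes and 1408, 2605 and 5782 in trunk osteoblasts, and 20854, 20016 and 15943 in head osteoblasts. Trunk osteoblast replicate 1 was stronger there than trunk chondrocyte replicate 3. On chromosome 2, 33049741 to 33049758, they were 678, 215 and 1381 in head chondrocytes, 705, 114 and 1196 in trunk chondrocytes, 5119, 4038 and 3279 in trunk osteoblasts and 24123, 9457 and 8472 in head osteoblasts. In that region all 3 trunk osteoblast libraries were weaker than all 6 chondrocyte libraries, and head osteoblast replicate 3 lay just past the kept summits. The other named regions of the class lay on chromosome 4 (2877567 to 2878123), chromosome 6 (26972753 to 26972818) and chromosome 8 (52167092 to 52167439 and 34410663 to 34410797). All 8 had a summit in the full lists of all 3 head osteoblast libraries, with ranks between 8472 and 24123.

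Regions missing from trunk osteoblasts were led by chromosome 24, 21274385 to 21274727. Ranks there were 443, 453 and 1125 in head chondrocytes, 1440, 1183 and 1451 in trunk chondrocytes, 3037, 5364 and 4079 in head osteoblasts and 11842, 11720 and 9116 in trunk osteoblasts. All 6 osteoblast libraries were weaker than all 6 chondrocyte libraries. Chromosome 5, 63117130 to 63117267, was even across holders, with ranks of 1912, 2230 and 2424 in head osteoblasts, with 1650, 2087 and 2583 in head chondrocytes and 2504, 2122 and 2986 in trunk chondrocytes, and 8733, 8692 and 13638 in trunk osteoblasts. Replicates 1 and 2 of trunk osteoblasts lay just past the threshold there.

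In 3 named regions of the class, trunk osteoblast replicates 1 and 2 had no summit in their full lists of 20380 and 24798 summits. They were chromosome 6 (14949972 to 14950064), chromosome 13 (47991348 to 47991472) and chromosome 9 (32632143 to 32632193). Replicate 3, with 64219 summits, had ranks of 11098, 21730 and 10580 in them. The holding libraries ranked between 1517 and 3897 in the first, between 1512 and 4897 in the second and between 951 and 7676 in the third. The remaining named regions were chromosome 16 (14657424 to 14657531), chromosome 13 (42152443 to 42152643) and chromosome 18 (34207725 to 34207792). On chromosome 13, 42152443 to 42152643, head osteoblasts ranked 5421, 5887 and 8012, head chondrocytes 389, 838 and 1757 and trunk chondrocytes 1378, 1302 and 2312, with 10890, 16527 and 13118 in trunk osteoblasts. All 6 osteoblast libraries were again weaker than all 6 chondrocyte libraries.

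Regions missing from head chondrocytes were led by chromosome 21, 39490296 to 39490394, where trunk osteoblasts ranked 715, 255 and 238, head osteoblasts 1408, 1102 and 1478, trunk chondrocytes 885, 1970 and 8343 and head chondrocytes 12666, 28651 and 19741. Trunk chondrocyte replicate 3 stood apart from the other holders. Chromosome 10, 43029016 to 43029173, was among the strongest regions of the osteoblasts, with ranks of 603, 306 and 356 in the head and 199, 660 and 529 in the trunk. In trunk chondrocytes it ranked 8142, 7550 and 7859, inside the threshold, and in head chondrocytes 10309, 12283 and 9610, outside it. The 2 chondrocyte populations differed little here compared with their distance from the osteoblasts.

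Chromosome 2, 21854896 to 21854998, had ranks of 562, 890 and 499 in trunk osteoblasts, 2017, 1407 and 3735 in head osteoblasts, 3933, 3010 and 3441 in trunk chondrocytes and 11291, 15522 and 13913 in head chondrocytes. Trunk osteoblasts were the strongest there, and head osteoblast replicate 3 lay within the range of trunk chondrocytes. On chromosome 23, 1918769 to 1918874, trunk chondrocytes had the lowest median rank of the holders, with ranks of 1065, 557 and 1895. Trunk osteoblasts ranked 2608, 3782 and 1726 in that region, head osteoblasts 4304, 5742 and 5687, and head chondrocyte replicates 1 and 2 ranked 34253 and 24477, with no summit in replicate 3. The remaining named regions were chromosome 15 (28289025 to 28289160), chromosome 19 (19379936 to 19379962), chromosome 5 (54500852 to 54500873) and chromosome 20 (37843714 to 37843756).

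Regions missing from trunk chondrocytes were led by chromosome 1, 24076164 to 24076189. Ranks were 654, 881 and 450 in head osteoblasts, 1580, 2244 and 2319 in head chondrocytes and 4329, 2816 and 3307 in trunk osteoblasts, and 13026 and 8818 in trunk chondrocyte replicates 1 and 2. Both head populations were stronger than trunk osteoblasts in that region. On chromosome 24, 41578277 to 41578317, head osteoblasts ranked 905, 714 and 982, trunk osteoblasts 4683, 1752 and 1210 and head chondrocytes 8276, 7512 and 5597, with 14119 and 12818 in trunk chondrocyte replicates 1 and 2. There all 3 head chondrocyte libraries were weaker than all 6 osteoblast libraries.

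On chromosome 23, 22984798 to 22984934, ranks were 2236, 968 and 901 in head osteoblasts, 1533, 3014 and 1052 in trunk osteoblasts and 4154, 3212 and 5888 in head chondrocytes, and 1 trunk chondrocyte library, replicate 2, had a summit, at rank 12624. The other 5 named regions of the class were chromosome 23 (2481177 to 2481190), chromosome 20 (35012003 to 35012109), chromosome 22 (607863 to 607881), chromosome 15 (3908213 to 3908340) and chromosome 3 (33760888 to 33760896). In all 8 named regions trunk chondrocyte replicate 3 had no summit, which its short list cannot tell from a weaker one.

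Regions with no summit of the missing population in any of its 3 full lists numbered 9, of which 4 were missing from head osteoblasts, 2 from trunk osteoblasts and 3 from head chondrocytes. Of all regions held by another population only, 7.02%, 12.2% and 5.57% had none in these 3 populations, and 9.53% in trunk chondrocytes, which had no such member. In each of the 9 that population had summits in at least 2 libraries within 1000 bp of the region, the nearest at 262 to 887 bp. In 8 of the 9 the strongest of these neighbouring summits was among the kept ones. One example is chromosome 19, 19379936 to 19379962, the 1 region that was kept in all 9 holding libraries and absent from all 3 full lists of the missing population. Ranks there were 3187, 2266 and 2599 in head osteoblasts, 2070, 2283 and 2972 in trunk osteoblasts and 4223, 2607 and 3019 in trunk chondrocytes, and the nearest head chondrocyte summit lay 296 bp away at rank 2943. In another, chromosome 2, 47739727 to 47739733, a head chondrocyte summit within 1000 bp ranked 122. These 9 regions were thus places where a summit of the missing population lay in a neighbouring region, and none of them was shown to lack open chromatin.

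Over all members, a kept summit of the missing population lay outside the region but within 1000 bp for 105 of 1424 (7.37%). It did so for 25 regions missing from head osteoblasts (7.69%, against 4.68% of all regions that head osteoblasts did not hold), 14 missing from trunk osteoblasts (6.11% against 4.01%), 19 missing from head chondrocytes (6.01% against 5.44%) and 47 missing from trunk chondrocytes (8.48% against 4.98%). The share for head chondrocytes was near that of all regions not held, and the counts of the other classes were small and not tested. Regions missing from head and trunk osteoblasts were also wide, with a median span of summits of 103 and 101 bp, against 82 bp in regions missing from head chondrocytes, 60 bp in those missing from trunk chondrocytes, 58 bp in regions of all 4 populations and 82 bp in all held regions.

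The library of the missing population that held a region alone was unevenly distributed. Of the regions missing from trunk osteoblasts, replicate 3 held 86 of 229 (37.6%), replicate 2 held 40 and replicate 1 held 32. Head chondrocyte replicates 1 and 3 held 90 and 83 of the 316 regions missing from their population, and replicate 2 held 26. Trunk chondrocyte replicate 2 held 184 of 554, and replicates 1 and 3 held 105 and 106. Head osteoblast libraries were closest to each other, with 43, 49 and 33 of 325.

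Close to the threshold, members lay on one side and regions of all 4 populations on the other. Within 500 ranks past it lay 32 regions missing from head osteoblasts, and within 500 ranks inside it 44 regions of all 4 populations with head osteoblasts at that rank. The counts were 35 and 39 for trunk osteoblasts, 56 and 85 for head chondrocytes and 89 and 91 for trunk chondrocytes. The nearest member past the threshold was chromosome 19, 10915855 to 10915918, with a deciding rank of 8408 in trunk chondrocytes, the first rank past the kept summits. The nearest regions inside it were on chromosome 2, 22817651 to 22817671, and chromosome 13, 33487802 to 33487832, both with 8406 in head chondrocytes.

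Most members changed state when another number of summits was used. With 20380 summits per library (and the whole list of trunk chondrocyte replicate 3), 1302 of the 1424 regions (91.4%) were held by all 4 populations and 122 (8.57%) were missing from the same population as before. Head osteoblasts kept the largest share, 48 of 325 regions (14.8%), against 21 of 229 for trunk osteoblasts, 16 of 316 for head chondrocytes and 37 of 554 for trunk chondrocytes. With full lists 61 regions (4.28%) kept their class. The largest share was then that of trunk osteoblasts, 16 of 229 (6.99%), against 15 of 325 (4.62%) for head osteoblasts. With 4000 summits per library 83 (5.83%) kept it, 690 (48.5%) were held by 1 or 2 populations and 651 (45.7%) by none. Longer lists can only add holders and shorter lists only remove them, so these directions follow from the construction.

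**Figure D4:**
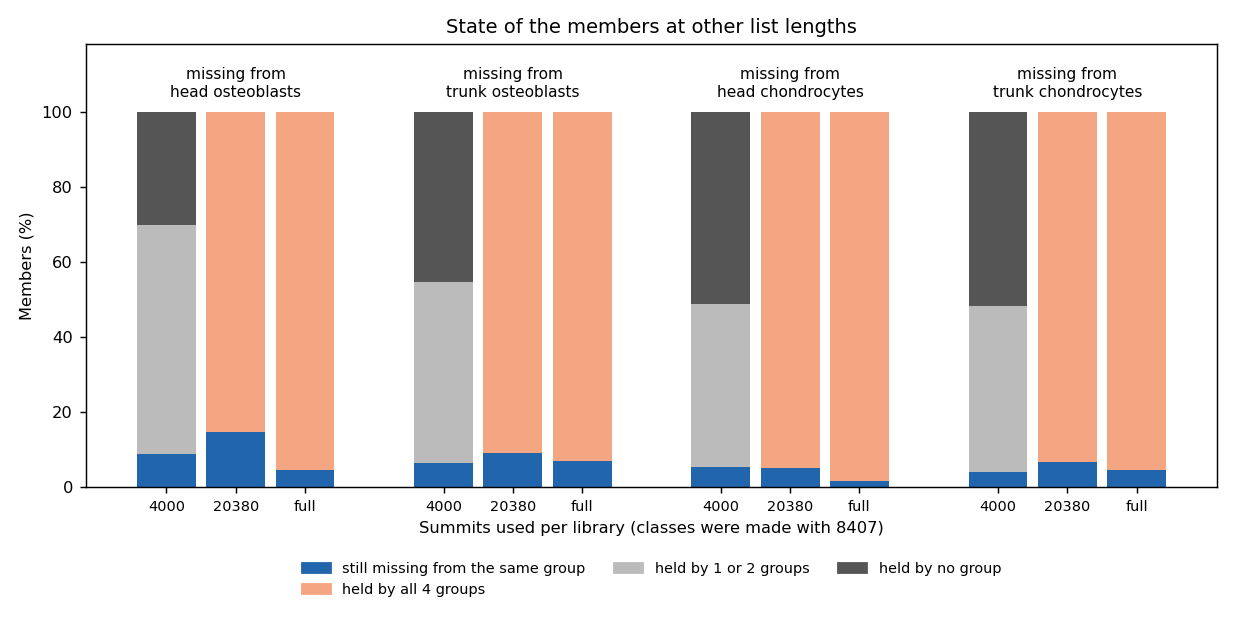
Stacked bars give the percentage of the members of each class (y axis) by their state when 4000 or 20380 summits per library or the full lists are used (x axis). With longer lists between 85.2% and 98.4% of each class were held by all 4 populations, and regions missing from head osteoblasts kept the largest share at 20380 summits, 14.8%. With full lists regions missing from trunk osteoblasts kept the largest share, 6.99%.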

How the data were processed

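The members and all measures were chosen with earlier results of these data known. Per the submitters' processing notes, the authors used fastp, Bowtie2, SAMtools, bedtools, deepTools and MACS2 with the danRer11 build (GRCz11), with versions and settings not given in the sources used here. Each deposited list holds the summits of 1 library, with a −log10 p-value or q-value as score, the choice between them being not given in the sources used here. Scores grow with depth and were used to rank summits within a list. The exception is the setting with a score of at least 5, which applied the same cut-off to all lists. Read depth is unknown and absence from a list is not closed chromatin. Per the labels, files were lost for 3 libraries, replicate 1 of both osteoblast populations and of trunk chondrocytes, and their alignments after read shifting were supplied. Enzyme amount and reaction time were adjusted to cell number, per the labels' protocols.

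Titles gave group and replicate number. The peak names inside 7 of the 12 deposited lists carry another number than the title, and only 1 of their numbers occurs in all 4 populations, so every replicate number here is that of the title. Replicates are labelled biological, with no statement on separate fish or sorts, so p-values measure the spread between these libraries only. Positions were converted to count from 1. Python 3.11.15, numpy 2.4.6 and pandas 2.3.3 were used. Chaining and classes were checked on simulated lists, and the permutation test of left-out libraries on a small made-up example. The permutations within sets and the sign flips were not checked in this way. Left-out shares were compared with exact two-sided permutation tests and Benjamini-Hochberg adjustment over the 4 classes at 0.05. The named regions were the 8 of lowest mean rank per class, first those with no summit of the missing population within 1000 bp in its full lists (none qualified), then those kept in all 9 holding and no other libraries. Genes, promoters and sequence motifs, which the design also planned, are not analysed here.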

Additional observations from a re-analysis of the deposited data

How the results depend on the processing

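Class sizes, in the order head osteoblasts, trunk osteoblasts, head chondrocytes and trunk chondrocytes, moved with list length. They were 167, 95, 173 and 271 (706 in all) with 4000 summits per library. With full lists they were 534, 4495 and 5199 (10511 in all) for all but head chondrocytes, whose 283 stayed within 1.5 times. With summits of a score of at least 5 they were 3954, 198 and 4568 (9125 in all) for all but head osteoblasts, whose 405 stayed within 1.5 times. Asking for 3 of 3 libraries to hold and 0 of 3 to lack left 69, 16, 27 and 37 (149 in all). Without the 3 libraries described with file loss, head chondrocytes had 110 and trunk chondrocytes 937. Without trunk chondrocyte replicate 3 and with 20380 summits, a setting added after the data were seen, counts were 842, 820 and 1591 (3722 in all), the 469 of head chondrocytes staying within 1.5 times. Chaining within 100 or 500 bp kept every count within 1.5 times. Leaving out 1 library gave 215 to 543, 149 to 517, 156 to 554, 333 to 1223 and, in all, 1344 to 1798 regions. A library less makes its population harder to count as holding, so its own class grows by construction. For libraries of the missing population, the change exceeded 1.5 times for all but head osteoblast replicate 1. The class missing from trunk chondrocytes had 1118, 1223 and 833 regions without trunk chondrocyte replicates 1, 2 and 3, trunk osteoblasts 402, 458 and 517, head chondrocytes 517, 521 and 554, and head osteoblasts 543 and 500 without replicates 2 and 3. Among holding libraries it exceeded 1.5 times for head osteoblasts without trunk osteoblast replicate 2 (215), for trunk osteoblasts without head osteoblast or trunk chondrocyte replicate 2 (149 each), for head chondrocytes without trunk chondrocyte replicates 1, 2 and 3 (156, 179 and 195) and for trunk chondrocytes without head chondrocyte replicate 3 (333).

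The left-out difference kept its direction in every class and setting run, a direction that agreement between replicates alone gives. Taking the value of 1 library out of the comparison gave -70.4 to -67.6, -50.4 to -38.6, -49.3 to -36.7 and -46.1 to -39.2 percentage points. All passed the threshold (exact permutation, adjusted p up to 0.0182). The library taken out still took part in choosing the regions in which the others were measured. These ranges are thus not from classes made without it, unlike the class sizes above. With full lists it missed the threshold for head osteoblasts (-32.5, exact adjusted p = 0.0788) and head chondrocytes (-26.1, 0.168), and the cause was not tested. With a replicate block (-69.1, -43.4, -44.8 and -41.5) the exact sign-flip p was 0.25, the smallest that 3 numbers allow. The block and the following check use the numbers of the titles, which differ from those in the peak names of 7 of the 12 lists. The labels do not say that a number marks a shared batch, and the numbers were not taken as pairs. Deviations of same-numbered libraries correlated at -0.109 to 0.154 and those of different-numbered ones at -0.193 to 0.187. Of the 12 libraries, 6 were closest to one of their own number. A shared batch was thus not excluded. The alternatives on sequence windows and promoter distance were not run, as no genome of this build was used here.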

Other observations

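Members were spread over the genome. Chromosome 22 had the highest share of its held regions among the members, 51 of 377 (13.5%), followed by chromosome 18 with 57 of 433 (13.2%). Chromosome 25 had the lowest, 21 of 374 (5.61%), and chromosome 4 had 34 of 430 (7.91%), against 10.5% overall. Chromosome 3 carried 42 of the 554 regions missing from trunk chondrocytes (7.58%) and 5.72% of all held regions, and chromosome 2 carried 25 of the 325 missing from head osteoblasts (7.69%) and 4.82% of all held regions.

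Few regions of one class shared a 100 kb window, and no expectation for sets of this size was computed. A 100 kb window held at most 3 members of a class. One with 3 regions missing from trunk osteoblasts was on chromosome 17, 29200001 to 29300000, where the members lay between 29200056 and 29241578. Another, with 3 regions missing from trunk chondrocytes, was on chromosome 3, 26100001 to 26200000. Windows with at least 2 members of the class held 8.0% of the regions missing from head osteoblasts, 9.17% for trunk osteoblasts, 3.8% for head chondrocytes and 8.84% for trunk chondrocytes. Larger sets fill windows more, so these shares are not compared with those of other sets. The median distance to the nearest other held region was 10529 bp for regions missing from head osteoblasts, 10828 bp for trunk osteoblasts, 11649 bp for head chondrocytes and 14123 bp for trunk chondrocytes, against 13080 bp over all held regions.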
